A study of Mus musculus with 4 samples.

Results

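Accessible chromatin around 10 genes of the blood vessel and blood lineages was examined in 2 lists of ATAC-seq regions from early mouse limb buds. ATAC-seq uses a transposase that inserts adapters into open chromatin, and stretches with many insertions are called as regions. The 10 genes were Tal1, Lmo2, Kdr, Flt1, Cdh5, Sox7, Sox17, Sox18, Erg and Fli1. A region was assigned to one of them when the nearest transcription start of a protein-coding gene, measured from the centre of the region, belonged to that gene, or when that centre was at most 2.5 kb away from one of the gene's own starts. By this rule the 10 genes held 52 of the 42613 regions in the E9.5 list and 67 of the 46765 regions in the E10.5 list. Wild-type embryos of the NMRI strain were used at both stages, with 2 biological replicates per stage, each the forelimb bud pair from a single embryo. The stages are named E9.5 and E10.5 after the sample titles, although the protocol puts the earlier one a little later than its title. The E9.5 buds were collected together with adjoining trunk, and the E10.5 buds, as far as the protocol says, were not. One label of the later samples gives their tissue as buds of both limb pairs, where the others give forelimb buds alone. Stage and trunk therefore cannot be told apart in any comparison.

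Endothelial cells line the blood vessels, and they share a mesodermal origin with the first blood cells. Tal1 and Lmo2 act together in a complex on DNA that is needed for blood formation and for vessel remodelling. Kdr and Flt1 encode receptors for vascular endothelial growth factor, Kdr being the main signalling receptor and Flt1 mostly a trap for the ligand, and Cdh5 encodes VE-cadherin, the adhesion molecule of endothelial junctions. Sox7, Sox17 and Sox18 form the SoxF group of transcription factors, with roles in arterial and lymphatic vessels. Erg and Fli1 are ETS family transcription factors that keep endothelial and blood stem cell genes active. In a limb bud, vessels are a minority tissue within mesenchyme, so in these bulk samples fewer cells of a type and less open chromatin per cell cannot be told apart.

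Both lists were deposited with replicates already combined, so no value below has a replicate error, the sequencing depth is unknown, and no test between the stages was made. Each region carries a score, 10 times the negative log10 of its best peak-calling p-value. Because this score grows with depth, regions are compared between stages by score percentile, the rank of a region within its own list, where 100 is the highest. Shared regions are those with 1 bp or more in common with some region of the other stage, and the rest are stage-specific. A region is promoter-proximal when its centre lies within 2.5 kb of a start and distal otherwise. Distances are given from the nearest start of the gene, negative upstream and positive downstream. Intervals are 95% Wilson intervals, which cover counting error only and treat regions as independent. The limb mesenchyme markers Prrx1, Tbx5, Fgf10, Twist1, Meis2 and Msx1 all had a promoter region at both stages. That of Tbx5 ranked low, with scores of 89.91 (percentile 4.11) at E9.5 and 74.17 (percentile 1.37) at E10.5.

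The distal regions with the highest scores show what sequence lay in open chromatin near these genes. For 6 members, 300 bases around the centre of such a region are given from the mm9 reference, which is of another strain than the embryos, on the plus strand. Capitals mark matches on either strand to 7 short motifs. The first is AGGAAG, bound by ETS factors, which also bind the second, the CG-holding form CCGGAA. Factors of the GATA family bind the third motif, AGATAA, SOX factors bind the fourth, ACAATG, and forkhead factors bind the fifth, GTAAACA. The last are E-boxes, CAGATG being the form preferred by complexes of Tal1, with CAGCTG as another common form. The centre is the middle of the region and not the point of highest signal. The first 4 sequences come from regions shared by the stages. They lay at chr1:4561874-4562173 (Sox17, intergenic), chr8:106546763-106547062 (Cdh5, intergenic), chr4:114735830-114736129 (Tal1, coding exon) and chr9:32302591-32302890 (Fli1, intron). The last 2 come from E10.5-specific regions, at chr2:103768084-103768383 (Lmo2, intergenic) and chr16:95691325-95691624 (Erg, intron).
Sox17: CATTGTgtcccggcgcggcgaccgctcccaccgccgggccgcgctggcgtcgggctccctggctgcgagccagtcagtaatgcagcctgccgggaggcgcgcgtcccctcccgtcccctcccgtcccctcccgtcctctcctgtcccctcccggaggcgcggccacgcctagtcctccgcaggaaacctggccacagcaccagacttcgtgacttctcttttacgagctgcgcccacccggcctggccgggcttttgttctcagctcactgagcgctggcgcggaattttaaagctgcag
Cdh5: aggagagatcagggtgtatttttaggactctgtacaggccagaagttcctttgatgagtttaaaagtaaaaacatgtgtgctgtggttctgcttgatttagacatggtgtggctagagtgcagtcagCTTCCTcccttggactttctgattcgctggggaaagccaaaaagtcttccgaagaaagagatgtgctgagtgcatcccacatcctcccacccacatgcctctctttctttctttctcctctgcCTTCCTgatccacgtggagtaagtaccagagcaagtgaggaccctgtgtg
Tal1: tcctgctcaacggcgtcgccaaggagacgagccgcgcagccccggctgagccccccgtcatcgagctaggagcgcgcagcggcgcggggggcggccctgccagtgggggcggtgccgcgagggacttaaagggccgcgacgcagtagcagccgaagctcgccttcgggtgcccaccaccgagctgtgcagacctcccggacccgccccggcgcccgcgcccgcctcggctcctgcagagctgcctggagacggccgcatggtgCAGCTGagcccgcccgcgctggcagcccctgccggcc
Fli1: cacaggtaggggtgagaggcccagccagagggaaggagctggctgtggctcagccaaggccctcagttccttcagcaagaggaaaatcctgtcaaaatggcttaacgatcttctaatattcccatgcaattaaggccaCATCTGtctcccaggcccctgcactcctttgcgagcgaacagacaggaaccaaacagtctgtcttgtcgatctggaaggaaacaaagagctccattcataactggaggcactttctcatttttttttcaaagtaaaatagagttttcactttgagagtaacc
Lmo2: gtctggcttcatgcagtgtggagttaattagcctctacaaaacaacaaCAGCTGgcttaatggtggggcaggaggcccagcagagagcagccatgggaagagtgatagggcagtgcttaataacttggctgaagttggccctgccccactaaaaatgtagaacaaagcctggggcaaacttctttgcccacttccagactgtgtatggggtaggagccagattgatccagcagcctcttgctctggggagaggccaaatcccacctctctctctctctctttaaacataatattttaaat
Erg: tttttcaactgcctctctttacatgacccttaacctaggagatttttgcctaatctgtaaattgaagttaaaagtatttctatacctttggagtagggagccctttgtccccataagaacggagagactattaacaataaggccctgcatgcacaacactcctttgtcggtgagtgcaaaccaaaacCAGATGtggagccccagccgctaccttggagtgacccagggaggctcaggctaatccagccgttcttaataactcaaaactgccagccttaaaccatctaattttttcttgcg
The 6 sequences differed in base composition. The Sox17 and Tal1 sequences held 69.3% and 76.3% G and C, with 32 and 39 CG dinucleotides. The other 4 held 44.3 to 49.0% G and C, and between 0 (Lmo2) and 5 (Erg) CG dinucleotides. All 300 bases of the Tal1 sequence are coding. The Cdh5 sequence had 2 ETS matches, and each of the others had 1 match, to the SOX motif in Sox17, to CAGCTG in Tal1 and Lmo2, and to CAGATG in Fli1 and Erg.

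Stage-specific regions of the 10 genes were distal in both lists, as were most stage-specific regions of the lists as a whole. A promoter region was present for 9 of the 10 members at E9.5 and for the same 9 at E10.5, against 65.2% and 62.6% of all 22238 protein-coding genes. All 11 promoter-proximal member regions of each list were shared, though with weak E10.5 partners at Sox7 (score 76.01, percentile 1.65) and at -2.30 kb of Sox18 (score 78.1, percentile 2.09). With a score of at least 100 required, Sox7 had 0 regions at E10.5, and Sox7 and Sox18 each had 1 E9.5-specific region. Of all member regions, 39 of 52 (75%, 61.8 to 84.8%) at E9.5 and 40 of 67 (59.7%, 47.7 to 70.6%) at E10.5 were shared. The stage-specific regions numbered 13 (25%, 15.2 to 38.2%) and 27 (40.3%, 29.4 to 52.3%), against 29.9% and 35.0% of all regions, both within the intervals of the members. Among distal regions 13 of 41 were E9.5-specific (31.7%, 19.6 to 47.0%) and 27 of 56 were E10.5-specific (48.2%, 35.7 to 61.0%), against 40.3% and 49.6% of all distal regions, again within the intervals. The stage-specific share of the members was thus near that of the lists as a whole. Counts of single genes are given below. They are small, and whether genes differ by more than counting error was not tested.

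**Figure D1:**
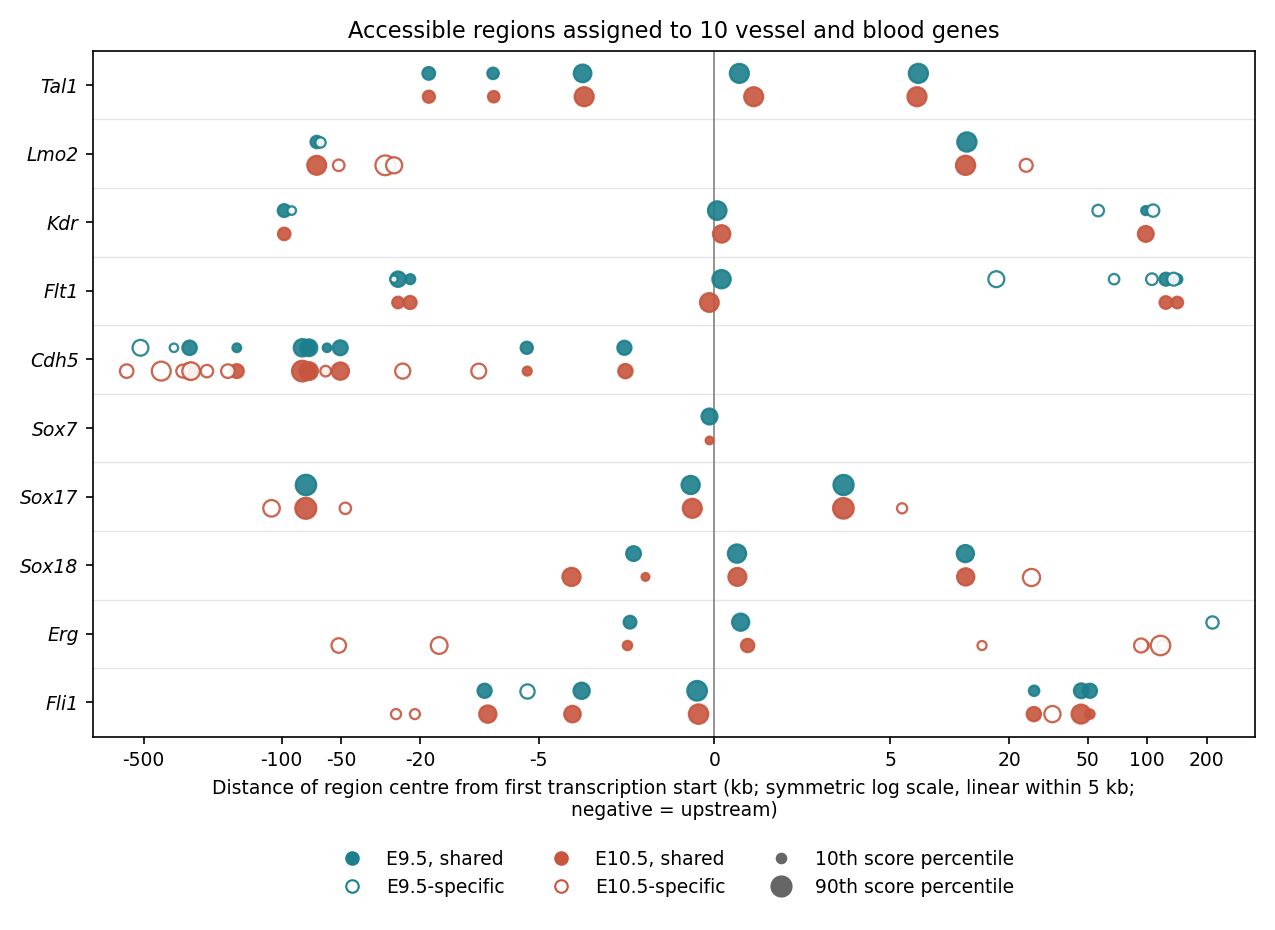
Positions of the accessible regions of the 10 genes relative to the first transcription start of each gene in kb (x axis, negative upstream, symmetric log scale that is linear within 5 kb), with 1 row per gene and E9.5 and E10.5 drawn apart. Filled circles are shared and open circles stage-specific regions, and circle size follows the score percentile. Cdh5 regions lie only upstream of the gene, as far as 609 kb away, and Flt1, Erg and Fli1 have regions in introns.

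Members had more regions than the usual gene, and a smaller share of them lay at promoters. The median member had 4.0 regions at E9.5 and 5.5 at E10.5, with means of 5.2 and 6.7, while the median over all genes was 1.0 at both stages and the means were 1.92 and 2.10. Promoter-proximal regions made up 21.2% (12.2 to 34%) of member regions at E9.5 and 16.4% (9.42 to 27.1%) at E10.5, below the 38.3% and 32.9% of all regions. In the higher-scoring 50% of each list the shares were 47.4% and 21.9%, against 61.3% and 50.8% of all regions there. Neither trait was particular to the members. The 64 other vascular and blood genes had 352 and 317 regions, 23.0% and 20.5% of them promoter-proximal. The 6 limb mesenchyme genes had 50 and 70, with 14.0% and 14.3%. Muscle precursor genes had promoter-proximal shares of 19.1% and 22.0%, and neural tube genes 32.2% and 38.0%. The median score percentile of member regions was 37.5 (order-statistic interval 27.5 to 50.5) at E9.5 and 43.4 (31.8 to 56.9) at E10.5, against 50 by construction over each list. The order of the stages turned in the higher-scoring 50% (70.9 and 69.6) and with starts of all gene types in place of protein-coding ones (40.9 and 38.6). Within the lists the scores of members ran from 67.02 to 1985.64 at E9.5 and from 72.9 to 3077.16 at E10.5.

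**Figure D2:**
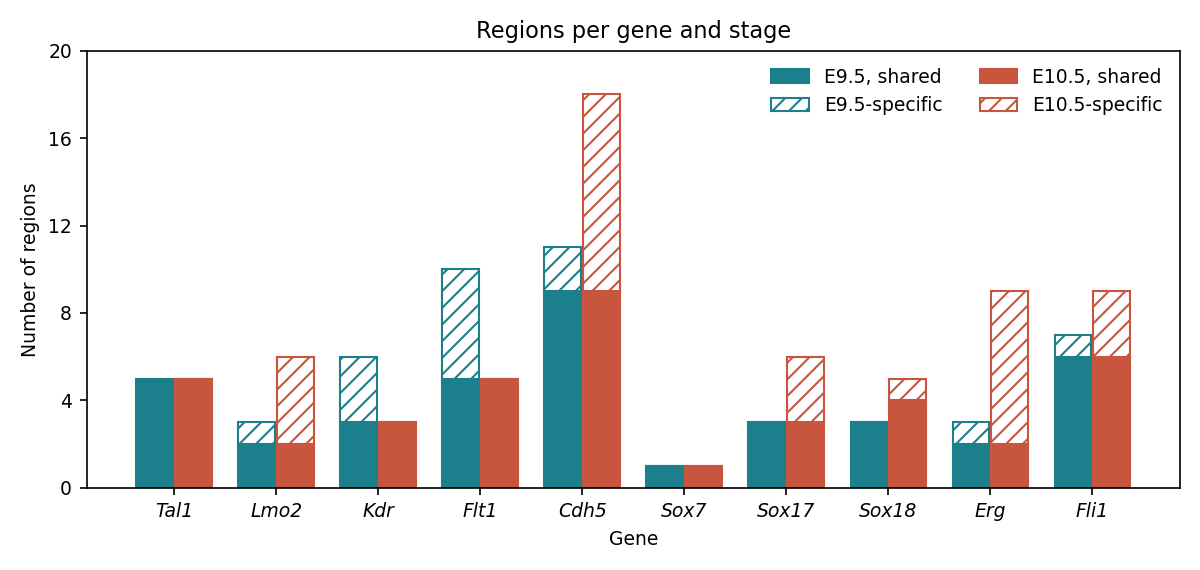
Number of accessible regions per gene (y axis) at E9.5 and E10.5, with shared and stage-specific regions stacked. Flt1 and Kdr have stage-specific regions at E9.5 only, and Cdh5 and Erg have the most at E10.5, with 9 and 7.

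Of the blood factors, Tal1 had the same set of assigned regions at both stages. Its 5 regions at E9.5 matched its 5 regions at E10.5 one for one, and 0 were stage-specific. The promoter region scored 940.33 at E9.5 (chr4:114728582-114730896, percentile 78.7) and 671.84 at E10.5 (percentile 78.2). The highest-scoring Tal1 region lay over a coding exon, at 3.87 kb from the nearest start and 6.95 kb from the first one, and scored 992.95 (percentile 79.8) and 695.9 (percentile 78.9). This is the region of the Tal1 sequence above. A region at -3.75 kb moved from percentile 65.7 (score 488.16) to 78.8 (score 691.54). The remaining pair were weaker, a region at -8.52 kb scoring 127.61 and 124.42, and one at -18.0 kb, over an exon of the neighbouring gene Stil, scoring 147.34 and 134.01. Apart from the region at -3.75 kb, the percentiles of Tal1 regions differed by at most 3.63 between the stages.

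Lmo2, the partner of Tal1, had most of its distal regions in the E10.5 list. It had 3 regions at E9.5 and 6 at E10.5, of which 1 and 4 were stage-specific. Its promoter region, at a start inside the gene 12.2 kb from the first start, ranked alike, with a score of 1062.12 (percentile 81.1) at E9.5 and 758.07 (percentile 80.8) at E10.5. The Lmo2 region with the highest E10.5 score was E10.5-specific, at -29.9 kb (chr2:103767453-103769014), with a score of 1004.54 and a percentile of 86.2. A second E10.5-specific region in the higher-scoring 50% of the list lay beside it at -27.0 kb and scored 259.77. A shared region at -66.5 kb was at percentile 25.8 (score 142.23) at E9.5, the highest-scoring distal Lmo2 region there, and at percentile 77.8 (score 660.76) at E10.5, the widest gap of any shared member region. The single E9.5-specific region, at -64.0 kb, had a score of 114.09. The assignment to Lmo2 depends on the annotation, since all its upstream distal regions, the one printed above included, were nearest to the start of Gm13876 or Gm13881 when starts of all gene types were used. That left 1 Lmo2 region at E9.5 (0 stage-specific) and 2 at E10.5 (1 stage-specific).

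Kdr and Flt1, the receptors for vascular endothelial growth factor, had 8 stage-specific regions in the E9.5 list and 0 in the E10.5 list, though for Kdr this depended on the start annotation and the score limit. Kdr had 6 regions at E9.5, of which 3 were E9.5-specific, and 3 at E10.5, all shared. Its promoter region had a score of 745.82 (chr5:76373389-76375421, percentile 74.1) at E9.5 and 374 (percentile 63.8) at E10.5. No region was centred in the 45.6 kb gene body beyond the promoter in either list. The distal Kdr regions were 56.4 to 107 kb from the start and weak, with E9.5 scores of 94.02 to 151.22, the highest at -97.2 kb. One of them, at 98.2 kb, went from percentile 7.27 (score 101.35) at E9.5 to 50.1 (score 242.07, the highest distal score of Kdr) at E10.5. With starts of all gene types in place of protein-coding ones, the 3 E9.5-specific regions of Kdr were assigned to other genes and 0 were left. In the higher-scoring 50% of each list the direction turned, with 0 E9.5-specific and 1 E10.5-specific region of Kdr. That region is the shared one at 98.2 kb, whose E9.5 partner was removed by the cut. Set against the whole other list, 0 Kdr regions were E10.5-specific.

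Flt1 had 10 regions at E9.5, of which 5 were E9.5-specific, and 5 at E10.5, all shared. Its promoter region scored 672.08 (chr5:148536370-148538401, percentile 72.1) and 607.56 (percentile 76.0). Of the Flt1 regions, 6 at E9.5 and 2 at E10.5 were centred inside the 164 kb gene beyond the promoter. The strongest E9.5-specific region was in an intron at 17.2 kb (chr5:148519820-148520887, score 271.08, percentile 51.3), and it was the highest-scoring distal Flt1 region at E9.5. The other 4 E9.5-specific regions scored between 67.02 and 154.52, below the median score of 260.35 of the list. At E10.5 the highest distal score was 151.1, at -22.4 kb, whereas a shared region at -25.8 kb was at percentile 47.1 (score 237.68) at E9.5 and 21 (score 127.12) at E10.5.

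Cdh5, which encodes VE-cadherin, had the most regions of the 10 genes and no promoter region by the 2.5 kb rule. It had 11 regions at E9.5 and 18 at E10.5, of which 2 and 9 were stage-specific, and all lay upstream of the gene. The nearest was centred at -2.564 kb (score 182.27) at E9.5 and at -2.535 kb (score 181.65) at E10.5, just past the limit, while the farthest promoter-proximal member regions were those of Erg at -2.404 and -2.476 kb. No region lay in the 42.9 kb gene body at either stage. The highest-scoring region was shared, at -78.5 kb (chr8:106546385-106547593), and went from percentile 63.8 (score 446.68) at E9.5 to 95.8 (score 1959.6) at E10.5. Its sequence, with 2 ETS matches, is the Cdh5 sequence above. The shared regions at -73.9, -72.8 and -50.5 kb were also higher in rank at E10.5, at percentiles 53.6, 68.1 and 62.7 against 34.9, 57.8 and 43.4. Those at -59.0 and -5.75 kb were lower, at 1.15 and 7.23 against 5.08 and 24.4. The remaining shared regions were higher, by 1.48 points for the one nearest the gene. In the E10.5 list 2 stage-specific regions were in the higher-scoring 50% of the list, at -407 kb (chr8:106217972-106219091, score 670.57) and at -287 kb (score 396.71). At E9.5 there was 1, at -518 kb (chr8:106106434-106107655, score 263.88). The upstream stretch has no nearer protein-coding start, so its far regions fall to Cdh5 by distance alone. Restricted to 100 kb, Cdh5 had 3 stage-specific regions at E10.5 and 0 at E9.5.

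Of the SoxF genes, Sox17 had the highest-scoring distal region of all members in both lists. It had 3 regions at E9.5, all shared, and 6 at E10.5, of which 3 were E10.5-specific. The highest, at -75.4 kb (chr1:4561108-4562669), scored 1985.64 at E9.5 (percentile 92.8) and 3077.16 at E10.5 (percentile 99), and its sequence is the GC-rich Sox17 sequence above. An intronic region at 3.62 kb followed, with scores of 1661.51 (percentile 89.8) and 1809.53 (percentile 95). Both stood above the Sox17 promoter region, which scored 629.4 (percentile 70.9) and 679.52 (percentile 78.4). Of the E10.5-specific regions, 1 was in the higher-scoring 50% of the list, at -113 kb with a score of 289.46, and those at -47.6 kb and 5.70 kb scored 124.53 and 109.59. With starts of all gene types, the region at -75.4 kb and the other upstream distal ones of Sox17 were nearest to a U6 RNA gene.

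Sox18 had 3 regions at E9.5, all shared, and 5 at E10.5. The main promoter region, at 0.641 kb, scored 660.83 (percentile 71.8) at E9.5 and 449.12 (percentile 68.7) at E10.5. A second promoter-proximal region, at -2.30 kb, was at percentile 42.1 (score 206.22) and 2.09 (score 78.1). At 12 kb a distal region held its rank, with a score of 401.8 (percentile 61.6) and 353.04 (percentile 62.2). The highest distal region at E10.5, at -4.07 kb with a score of 482.24, overlapped an E9.5 region with a score of 608.17 whose nearest gene was Tcea2. The 1 E10.5-specific region lay at 25.9 kb, in an intron of Prpf6, with a score of 351.36. It and the region at 12 kb were likewise nearest to a U6 RNA gene with starts of all gene types, which left Sox18 with 0 stage-specific regions. Sox7 had a single region in each list, at its promoter (chr14:64561710-64563000), with a score of 270.05 (percentile 51.2) at E9.5 and 76.01 (percentile 1.65) at E10.5. It was the lowest-ranked promoter-proximal member region of the E10.5 list.

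The ETS gene Erg had a lower-ranked promoter region and more distal regions in the E10.5 list. It had 3 regions at E9.5, of which 1 was E9.5-specific (36.0 kb from the nearest start, score 140.77, its highest distal score there), and 9 at E10.5, of which 7 were E10.5-specific. The promoter region was at percentile 61.3 (chr16:95806722-95808186, score 398.27) at E9.5 and 31.8 (score 156.39) at E10.5, and the region at -2.40 kb was at 28.1 and 8.70. The strongest E10.5-specific region scored 892.43 (chr16:95690756-95692194, percentile 83.9), more than the promoter. It lies in an intron, 117 kb downstream of the first start and at -10.5 kb from an internal one. Another E10.5-specific region in the higher-scoring 50% of the list was at -16.0 kb and scored 308.36, and the other 5 scored between 99.36 and 189.62. Within the 227 kb gene, regions centred beyond the promoter numbered 1 in the E9.5 list and 5 in the E10.5 list.

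Fli1 had 7 regions at E9.5 and 9 at E10.5, of which 1 and 3 were stage-specific. Its promoter region was the highest-scoring of all member promoters, with scores of 1279.41 (chr9:32347445-32351492, percentile 84.8) and 838.07 (percentile 82.7). The highest distal score at E9.5 was 295.68, at -3.78 kb. At E10.5 it was 672.99 (percentile 78.2), in the intronic region at 46.2 kb whose sequence is given above and which was at percentile 42.4 (score 207.26) at E9.5. An intronic region 51.3 kb from the start had the opposite order, with percentiles of 37.3 and 9.22. One E10.5-specific intronic region, at 33.1 kb, was in the higher-scoring 50% of the list with a score of 270.76, and those at -21.2 and -26.4 kb scored 108.22 and 109.22.

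Grouped by these counts, a grouping made after the values were seen, Kdr and Flt1 had 8 E9.5-specific of 16 regions (50%) and 0 E10.5-specific of 8. Lmo2, Cdh5, Sox17, Sox18, Erg and Fli1 had 5 of 30 (16.7%) and 27 of 53 (50.9%). Tal1 and Sox7 had 0 of 6 in both lists. The stage-specific shares at E9.5 and E10.5 were 29.9% and 35.0% of all regions, and 40.3% and 49.6% of all distal regions. The contrast between these groups follows from how they were formed, so no interval is given. Counting per gene, E10.5-specific regions outnumbered the E9.5-specific ones for 6 members, were fewer for 2 and equal for 2. Over all genes 19.9% had more, 18.9% had fewer and 61.3% had equal numbers. This is not a like comparison, since genes with few or no regions often have equal numbers. Of all 22238 genes, 6634 had 0 regions at E9.5 and 6774 at E10.5, and the median was 1.0 at both stages. Without Cdh5, 26.8% of member regions were E9.5-specific and 36.7% E10.5-specific.

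The ranks of shared regions were set side by side, pairing each of the 39 shared E9.5 regions with its best-scoring E10.5 partner. The lists differ in length and in the share of promoter-proximal regions, so a rank is relative to its list and not a measure of strength. Promoter-proximal member regions mostly ranked lower at E10.5 and distal ones mostly higher, the direction that pairs of the whole lists had too. Of 11 promoter-proximal pairs, 2 had a higher percentile at E10.5 (18.2%, 5.14 to 47.7%), those of Flt1 and Sox17, against 41.6% of all promoter-proximal pairs. The median difference, E10.5 minus E9.5, was -3.08 percentile points for the members and -1.47 for all pairs. Of 28 distal pairs, 19 were higher at E10.5 (67.9%, 49.3 to 82.1%), against 58.2% of all distal pairs, with median differences of 7.33 and 4.04. Both background shares lay within the intervals of the members. The widest gaps towards E10.5 were those of the Lmo2 region at -66.5 kb, the Kdr region at 98.2 kb and the Fli1 region at 46.4 kb, and the widest towards E9.5 were those of the Sox7 promoter and the Sox18 region at -2.30 kb.

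**Figure D3:**
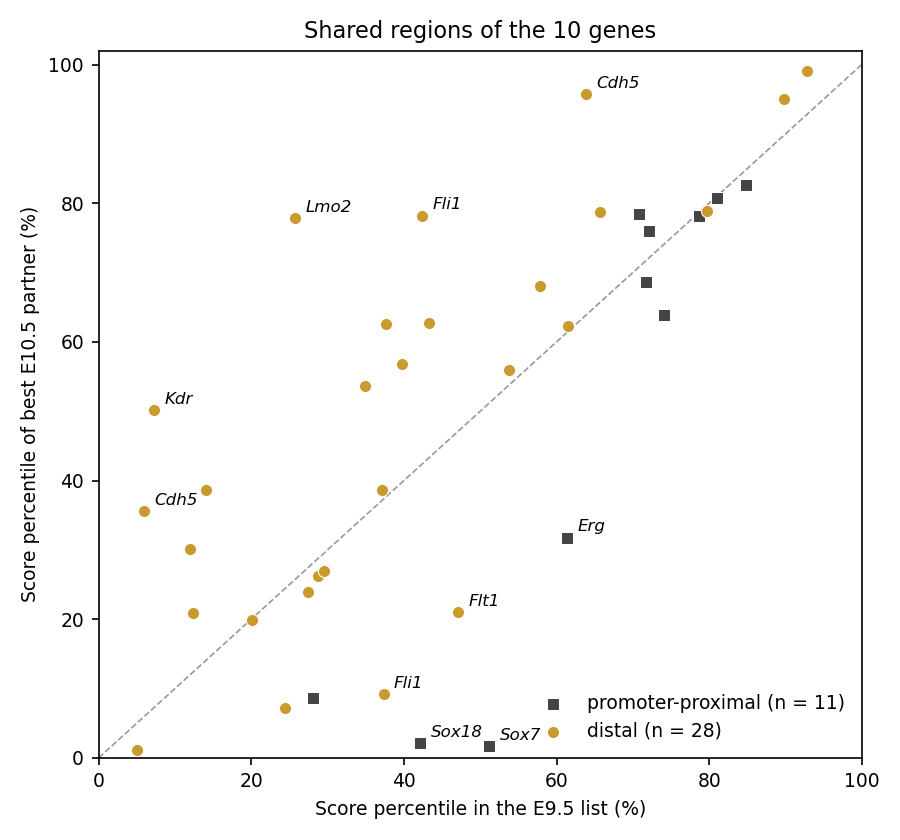
Score percentile of the 39 shared member regions in the E9.5 list (x axis) and of their best-scoring partner in the E10.5 list (y axis), promoter-proximal and distal regions marked apart, with the line of equal percentile. Gene names mark pairs that differ by more than 25 points. Of the distal pairs 19 of 28 lie above the line, and of the promoter-proximal pairs 2 of 11.

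The sequence of the regions was compared with that of all regions. The median GC content of distal E10.5-specific member regions was 47.5%, that of distal shared ones in the same list 53.2%. The medians over all such regions were 44.2% and 50.5%. At E9.5 the member medians were 52.8% and 53.2%, against 50.8% for both classes over all regions. The part of GC content in the stage-specific calls was not tested.

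The ETS motif AGGAAG was the most frequent of the 7 in member regions and in the lists as a whole. In a window of about 300 bp around the centre it was found on either strand in 22 of 52 member regions at E9.5 (42.3%, 29.9 to 55.8%) and in 26 of 67 at E10.5 (38.8%, 28.0 to 50.8%), against 34.5% and 33.2% of all regions. The E-box CAGATG was found in 26.9% and 29.9% of member regions, against 23.1% and 25.2%. CAGCTG, which reads the same on both strands, was found in 23.1% and 20.9%, against 23.5% and 21.8%. The GATA motif was found in 15.4% and 13.4%, against 10.4% and 9.73%, and the SOX motif in 15.4% and 11.9%, against 12.1% and 11.5%. Over whole regions the GATA share at E9.5 turned to below that of all regions (34.6% against 42.0%), as did the SOX share at E10.5 (35.8% against 39.6%). The second ETS motif, CCGGAA, was found in 7.69% and 8.96%, against 11.4% and 10.3% of all regions. In distal regions alone its shares were 9.76% and 10.7%, against 6.30% and 5.16%. The forkhead motif GTAAACA was found in 0 of 52 and 0 of 67 member regions, which allows shares of up to 5.77% and 4.48%, against 3.46% and 3.66%. Over whole regions it was found in 11.5% and 10.4% of them, against 15.0% and 14.7% of all regions. For each of the 7 motifs the share over all regions lay within the interval of the members or below the limit of a count of 0. No 2 of these motifs can match the same letters in full, though neighbouring matches may share bases.

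Other genes of the vascular and blood programme, 64 in all, had 352 regions at E9.5 and 317 at E10.5. Of these, 57.4% (52.2 to 62.4%) and 65.9% (60.6 to 70.9%) were shared, against 70.1% and 65.0% of all regions. For 34 of the 64 genes the E9.5-specific regions were the more numerous, for 13 the E10.5-specific ones were, and for 17 the numbers were equal. Among the 10 members the corresponding numbers were 2, 6 and 2. Over all regions 29.9% were E9.5-specific and 35.0% E10.5-specific. Endothelial surface genes had 38 E9.5-specific of 84 regions (45.2%, 35.0 to 55.9%) and 17 E10.5-specific of 62 (27.4%, 17.9 to 39.6%). Vascular ligand genes had 16 of 37 (43.2%) and 16 of 38 (42.1%), and arterial and venous genes 24 of 52 (46.2%) and 24 of 53 (45.3%). Further endothelial transcription factor genes had 43 of 120 (35.8%) and 38 of 120 (31.7%). Blood transcription factor genes had 14 of 36 (38.9%) and 8 of 31 (25.8%), and blood surface and globin genes 15 of 23 (65.2%, 44.9 to 81.2%) and 5 of 13 (38.5%, 17.7 to 64.5%). At E10.5 the share over all regions lay within the interval of each of these lists. At E9.5 it lay below those of the endothelial surface, arterial and venous, and blood surface and globin genes, and within the rest.

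**Figure D4:**
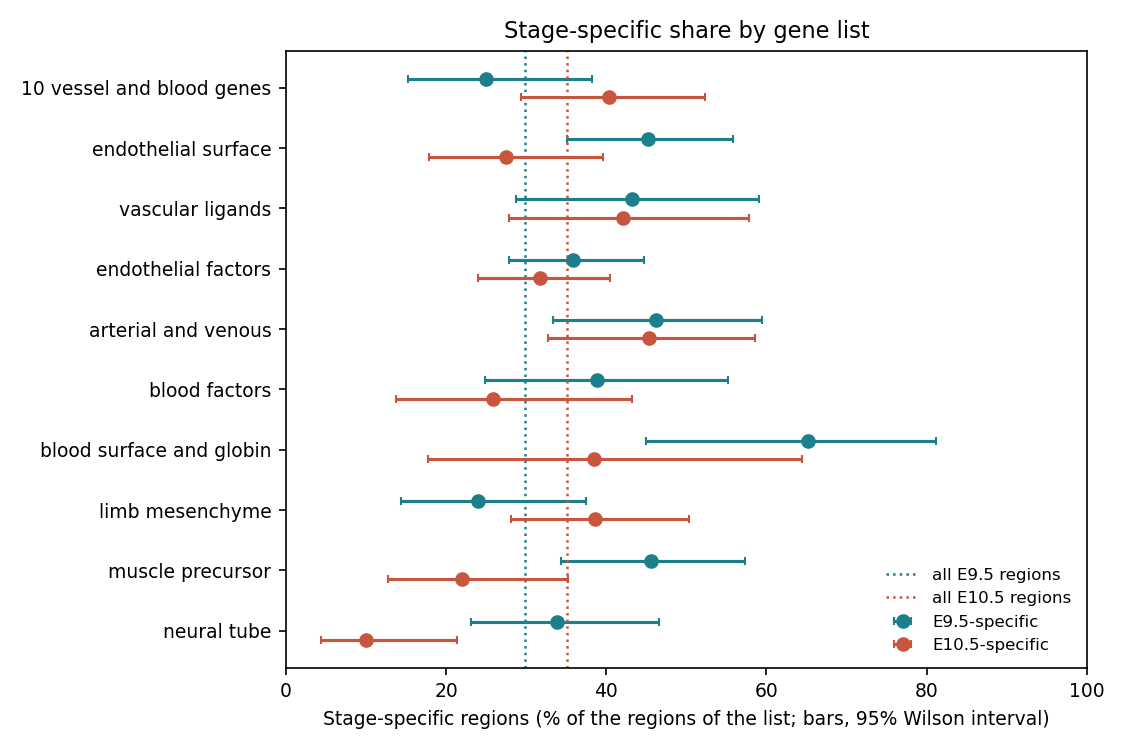
Percentage of regions that are stage-specific (x axis) in each gene list at E9.5 and E10.5, with 95% Wilson intervals as bars and the share over all regions as a vertical line per stage. The members stand at 25% at E9.5 and 40.3% at E10.5, and the neural tube genes at 33.9% and 10%.

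Promoter regions of the 64 genes were listed for 44 at both stages, for 7 at E9.5 only, for 0 at E10.5 only and for 13 at neither. In all, 51 genes had one at E9.5 and 44 at E10.5, against 65.2% and 62.6% of all protein-coding genes. Those listed at E9.5 only were Flt4 (the lymphatic receptor of the VEGF family), Acvrl1, Pdgfb, Dll4 (an arterial Notch ligand) and the embryonic globin genes Hba-x, Hbb-bh1 and Hbb-y. The E9.5 promoter scores were 147.19 for Flt4, 106.09 for Acvrl1 (at 2.22 kb), 240.65 for Pdgfb and 341.94 for Dll4. At E10.5 the nearest region to a Dll4 start was at 3.05 kb, past the 2.5 kb limit. Absence from a list does not show closed chromatin. The globin genes together had 7 regions at E9.5, all E9.5-specific, with scores of 95.49 to 682.47, and 0 at E10.5. Globin genes have close copies, and regions there rest on reads that map to a single place. Without a promoter region at either stage were the endothelial genes Tek, Tie1, Pecam1, Eng, Emcn, Icam2 and Robo4 and the blood genes Gata1, Spi1, Gfi1b, Ptprc, Hba-a1 and Alas2. Some of these had a region within 5 kb of a start. They were Icam2 (3.97 kb at E9.5, 3.99 kb at E10.5), Spi1 (3.55 and 4.83 kb) and, at E10.5, Robo4 (4.54 kb). A promoter region was listed for 11 of the 18 endothelial surface genes in the E9.5 list and for 9 in the E10.5 list, with Esam, Cd34 and Cldn5 among them in both. Of the 10 members only Cdh5, an endothelial surface gene itself, had none. Ets1 had the most regions at E9.5, 25, and Mef2c the most at E10.5, 30. Among genes with at least 5 regions, Egfl7 and Prox1 had the highest E9.5-specific share (4 of 6 regions each), and Hey2 the highest E10.5-specific share (5 of 7).

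Genes of other tissues were set beside the members, with no test of the difference. Limb mesenchyme genes had 12 E9.5-specific of 50 regions (24.0%, 14.3 to 37.4%) and 27 E10.5-specific of 70 (38.6%, 28.0 to 50.3%), beside the 25% and 40.3% of the members. Muscle precursor genes had 31 of 68 (45.6%, 34.3 to 57.3%) and 11 of 50 (22.0%, 12.8 to 35.2%). Neural tube genes, of which 9 of 10 were matched, had 20 of 59 (33.9%, 23.1 to 46.6%) and 5 of 50 (10%, 4.35 to 21.4%). Over all regions the shares were 29.9% and 35.0%. The muscle and neural genes had the larger stage-specific share at E9.5, as did the 64 other vascular and blood genes (42.6% and 34.1%). The members had it at E10.5, as did the limb mesenchyme genes and the lists as a whole. The part of trunk tissue in the member values was not tested.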

How the data were processed

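ATAC-seq was performed on limb buds of wild-type mouse embryos at 2 stages with 2 replicates each. The authors aligned reads to mm9 with Bowtie 1.1.0 (versions per the submitters' processing notes), kept unique alignments, ran MACS 1.4 on each replicate with no control library, and combined replicates with MSPC at a stringent p-value of 1e-10 and a weak one of 1e-06. The deposited score of a region is 10 times the negative log10 of its best MACS p-value and is not scaled for depth, which is unknown. Both files give the replicates of a stage merged into 1 list, and values of single replicates were not analysed here.

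Regions were annotated with GENCODE vM1 on NCBIM37, the assembly of mm9, whose chromosome ends were passed by 0 regions. Nearest starts were taken over 69976 starts of 22238 protein-coding gene symbols. Spi1 was matched through the synonym Sfpi1, and Sox1 was unmatched. Overlaps, percentiles, GC content and motif matches were computed in Python 3.11.15 with pandas 2.3.3 and scipy 1.17.1, and the code was tested on simulated data. Shares carry 95% Wilson intervals, medians carry order-statistic intervals, and a count of 0 is given the share of 3 counts as its limit. With 1 combined list per stage, no significance test was made.

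The members and lists were chosen with earlier results of these data known. All members were named, with their highest-scoring and highest distal regions and the stage-specific ones in the higher-scoring 50% of a list. Of the other lists, genes without a promoter region, with the most regions, or with the highest stage-specific share among those with 5 or more regions were named. Alternatives varied the score cut, the overlap, the promoter distance, the starts, the distance limit and the motif window.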

Additional observations from a re-analysis of the deposited data

How the results depend on the processing

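Of 481 alternative values, 382 moved by less than their counting interval or 1.5 times and 99 moved further, 83 of these for single genes or motifs. The order of the stages turned in 11 comparisons. These were the median percentile with the higher-scoring 50% and with starts of all gene types (values in the report), the region count of Kdr with the higher-scoring 50% (1 and 2, also against the whole other list), its stage-specific count there (0 and 1), and 6 for motifs in wider windows. The order of members and all regions turned in 4, all for motifs in wider windows. With the higher-scoring 50% of each list alone there were 19 and 32 member regions (E9.5 and E10.5), a promoter-proximal share of 47.4% at E9.5, median percentiles of 70.9 and 69.6, and 154 and 152 regions of the other vascular and blood genes. Setting those regions against the whole other list made 89.5% and 71.9% of member regions and 79.9% and 82.2% of the other genes' regions shared. For the other genes at E10.5, starts of all gene types gave 198 regions (72.2% shared), a limit of 100 kb gave 195 (77.4% shared), and a reciprocal overlap of 50% gave 58.4% shared. Fewer regions or a stricter overlap follow from the construction of these settings. Leaving out each member in turn, chosen after seeing the data, moved the shared share to between 72.3 and 81% at E9.5 and between 56.5 and 65.5% at E10.5. No paired analysis was possible because both files analysed give the replicates of a stage merged into 1 list, and for the same reason leaving out each replicate was not run. Depth is unknown, so a gene with no region had none above the authors' threshold, which does not show closed chromatin.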

Other observations

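Some regions near the members were nearer to a start of another gene and are not in the counts above. Tal1 had an E9.5-specific region beyond its 3' end (chr4:114751318-114752840), 20 kb from the nearest Tal1 start, with a score of 605.35 and a percentile of 70.0, and its nearest gene was Pdzk1ip1. This score was above that of any E9.5-specific region assigned to a member, the highest of which was 271.08. A second region there, at 26.2 kb, was shared, with an E9.5 score of 187.57 and an E10.5 score of 186.23. In an intron of Fli1, an E10.5-specific region (chr9:32251257-32252036, score 244.8) lay 97.3 kb from the Fli1 start and was nearest to Kcnj1.

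Tek, which encodes the angiopoietin receptor, lacked a promoter region in both lists, and its shared region at 25.9 kb scored 135.79 (percentile 23.3) at E9.5 and 643.37 (percentile 77.3) at E10.5. Efnb2, an arterial ligand gene, had 21 regions at E9.5, of which 13 were E9.5-specific, and 26 at E10.5, of which 18 were E10.5-specific. Distal regions made up 20 and 25 of them. Over all distal regions 40.3% and 49.6% were stage-specific.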
